A study of Mus musculus with 9 samples.

Results

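The genes described here are the proteasome family of the mouse, namely every gene whose symbol starts with Psma, Psmb, Psmc, Psmd, Psme, Psmf or Psmg followed by a digit and holds no hyphen. The sequence records of a symbol were summed, and a gene was kept when its sum was above 0 in all 9 libraries. This rule gave 49 genes of the 15372 tested, and all 49 symbols of the table that match the pattern passed it. By role they are 14 subunits of the constitutive 20S core, 3 immune catalytic subunits, the thymus catalytic subunit Psmb11, 17 subunits of the 19S particle, 6 activators and inhibitors of the core, 7 assembly factors, and Psmc3ip. Psmc3ip shares the letters of the pattern but encodes a meiotic recombination factor and no subunit.

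RNA came from gastrocnemius, a calf muscle, in 3 groups of 3 libraries. Wildtype mice on vehicle formed one group, mdx mice on vehicle another, and the last was mdx mice dosed with GTx-026 at 10 mg/kg by the subcutaneous route, and the labels give the strain C57BL/6 to all of them. In mdx mice every cell carries a mutated Dmd, the gene of dystrophin, which makes them a Duchenne muscular dystrophy model, and by the title of the series GTx-026 belongs to the androgen receptor agonists. The labels give no age, sex or length of treatment for these groups. They also do not say which animal gave which library, so every p-value reflects the spread between libraries only, and the library numbers used here are names without pairing.

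The proteasome is the protease that degrades proteins tagged with ubiquitin. Its barrel, the 20S core, is made of alpha subunits that gate the entry and beta subunits of which Psmb5, Psmb6 and Psmb7 carry the active sites, and the 19S particle binds ubiquitin chains, removes them and threads the substrate into the core. Interferon gamma induces the immune subunits Psmb8, Psmb9 and Psmb10, which take the places of Psmb5, Psmb6 and Psmb7 and favour peptides for MHC class I, and it also induces the activators Psme1 and Psme2. In skeletal muscle the ubiquitin and proteasome pathway degrades contractile proteins during atrophy.

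Values are CPM, reads for every M (mega) reads of a library after rescaling between libraries, and log2 fold changes are on the log2(CPM + 1) scale, on which differences of low genes come out too small. The libraries held 25.1 M to 38.0 M listed reads, so that 1 CPM stood for at least 27 reads. Dmd, the mutated gene, stood at 41.3, 60.5 and 51.4 CPM in wildtype vehicle libraries 1 to 3, at 11.5, 21.8 and 21.5 CPM in mdx vehicle, and at 17.4, 14.1 and 17.8 CPM in mdx GTx-026, so that both mdx groups lay wholly below wildtype. The Dmd difference of mdx vehicle from wildtype was -1.47 ± 0.24 (SE) on the log2 scale with a Benjamini-Hochberg adjusted p = 0.0393 in limma. Its adjusted p was 0.0344 and 0.0395 without mdx vehicle library 1 or 2, lay between 0.0513 and 0.194 without any other single library, and was 0.138 with the spread taken from the 2 groups alone. In mdx GTx-026 the Dmd difference from wildtype was -1.57 ± 0.24 (SE; limma adjusted p = 0.0164), and without wildtype vehicle library 2 or 3 or any single mdx GTx-026 library the adjusted p lay between 0.0571 and 0.0802. The muscle actin Acta1 stood at 27468 to 48675 CPM over the 9 libraries. Mdx vehicle library 1 stood apart, with the lowest depth, the highest rescaling factor, 1.28, and, after rescaling, the lowest summed level of 9 skeletal fibre markers, 119872 CPM against up to 210988 CPM. Scaled to the library total its sum was 153730 CPM, and mdx GTx-026 library 3 was lowest, at 138600 CPM.

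None of the 49 proteasome genes passed an adjusted p of 0.05 in any of the 3 comparisons by limma. In mdx vehicle against wildtype vehicle 77 of all tested genes passed, 0.501%, and the lowest adjusted p of a proteasome gene was 0.203. At an unadjusted p under 0.05 there were 4 proteasome genes, Psmg4 higher and Psma3, Psmd4 and Psme4 lower, where 12.9% of all genes reached that level. Between mdx GTx-026 and mdx vehicle 2 of all genes passed, 0.013%, and the unadjusted level was reached by 1 proteasome gene, Psmd8, which was higher, and by 3.12% of all genes. In mdx GTx-026 against wildtype vehicle 257 genes passed, 1.67%, the lowest adjusted p of a proteasome gene was 0.0952, and 2 of them, Psmd8 and Psmg4, were higher at the unadjusted level, which 12.8% of all genes reached. The 3 comparisons share libraries and an estimate of the spread pooled over all 9, so they are not independent of each other. No proteasome gene passed the adjusted threshold in any of the 20 alternative settings either, where the lowest adjusted p was 0.0576, for Psmg4.

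Genes whose libraries did not overlap between groups were also counted. From wildtype to mdx vehicle 2 proteasome genes, Psmg4 and Psmg2, lay wholly higher, as did 8.2% of all genes, and 7 lay wholly lower, as did 8.35% of all genes, whereas with the deposited scaling or the library total 2 did, Psmd4 and Psme4, beside 4.65% and 4.37% of all genes. The 7 were the alpha subunit Psma3, the 19S subunits Psmd1, Psmd2, Psmd4 and Psmd11, the activator Psme4 and the assembly factor Psmg1. From mdx vehicle to mdx GTx-026 Psmd8 and Psme3 lay wholly higher, 2 of 49 against 3.36% of all genes, and Psmg2 lay wholly lower, 1 of 49 against 3.6%. With either of the other scalings Psmd8, Psmd4, Psme4 and Psmc4 lay wholly higher there and 0 of 49 wholly lower. From wildtype to mdx GTx-026 Psmd8 and Psmg4 lay wholly higher, 2 of 49 against 11.2%, and Psma1, Psmg1 and Psmc3ip wholly lower, 3 of 49 against 9.94%. With either of the other scalings Psma7 and Psmc5 joined the 2 that lay higher, and of the 3 that lay lower Psmc3ip stayed apart with the deposited scaling and none with the library total.

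The fold changes of the family were small. In mdx vehicle against wildtype 10 of the 49 genes had a higher mean, 20.4% against 51.3% of all genes, and the median log2 difference was -0.12 against 0.01 over all genes. This lean depended on how libraries were scaled: with the authors' deposited scaling the median of all genes itself was at 0.15 and 33 of 49 proteasome genes were higher, and with scaling to the library total that median was at 0.16 and 34 were higher. Read against the median of all genes, 9 of 49 proteasome genes lay above it with the rescaling used here, 11 with the deposited scaling and 12 with the library total. In mdx GTx-026 against mdx vehicle 35 of 49 were higher, 71.4% against 48.0% of all genes, with a median log2 difference of 0.06 against -0.01, and 35 lay above the median of all genes in each of the 3 scalings. In mdx GTx-026 against wildtype 17 of 49 were higher, 34.7% against 48.0%, and 36 with the deposited scaling or the library total, while 18 or 19 of 49 lay above the median of all genes in each of the 3.

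After rescaling, the lean in mdx vehicle was largest in library 1 of that group, and its size depended on single libraries. In mdx vehicle library 1 the 31 constitutive 20S and 19S genes had a median of -0.35 on the log2 scale relative to the wildtype mean, and 30 of 31 lay below that mean. The medians were 0.03 and -0.10 in mdx vehicle libraries 2 and 3, and 0.02, -0.17 and -0.04 in mdx GTx-026 libraries 1 to 3. Mdx vehicle library 1 was the lowest of the 9 on this scale and mdx GTx-026 library 2 was next. With the deposited scaling the median of mdx vehicle library 1 was 0.09, with 9 of 31 genes below the wildtype mean, and the lowest library was wildtype vehicle library 3, at -0.10. The median of all genes in mdx vehicle library 1 was itself at 0.36 there, so that relative to all genes the 31 lay at -0.28, again the lowest of the 9. The number of proteasome genes higher in mdx vehicle than in wildtype went from 10 to 19 without mdx vehicle library 1 and to 17 without wildtype vehicle library 2. The number higher in mdx GTx-026 than in wildtype went from 17 to 11 without mdx GTx-026 library 1. The part of the low muscle fibre markers of mdx vehicle library 1 in these values was not tested.

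**Figure D1:**
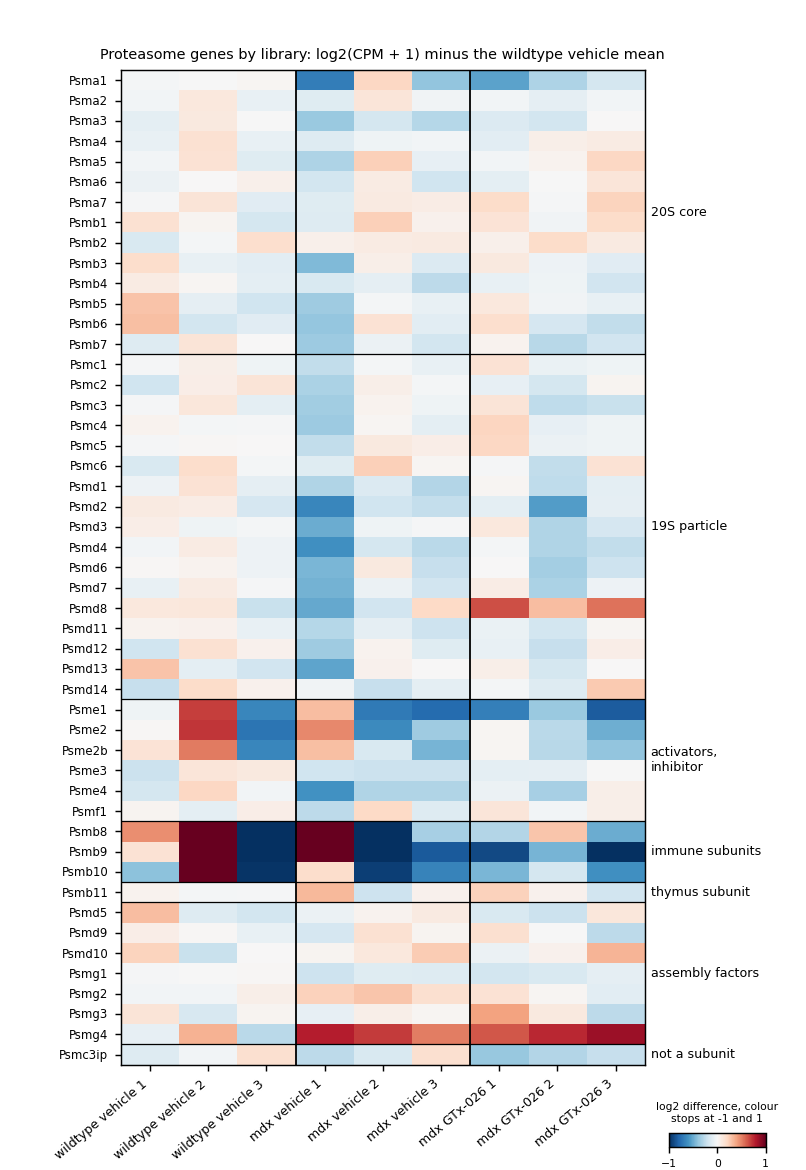
Each row is 1 of the 49 proteasome genes, grouped by role, and each column 1 of the 9 libraries. Colour gives log2(CPM + 1) minus the wildtype vehicle mean and stops at 1 in either direction. The column of mdx vehicle library 1 is below the wildtype mean for 30 of the 31 constitutive 20S and 19S genes on the scale drawn, but for 9 with the deposited scaling and 8 with the library total, and the immune block holds the strongest colours, with wildtype vehicle library 2 and mdx vehicle library 1 high.

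The 14 constitutive core genes varied little between libraries of a group. Their median SD within a group was 0.135 on the log2 scale, against 0.227 over all genes and 0.236 over genes of at least 40 CPM. In mdx vehicle against wildtype 3 of 14 had a higher mean, with a median log2 difference of -0.11, which turned to 0.07 and 0.08 with the deposited scaling and the library total. In mdx GTx-026 against mdx vehicle 12 of 14 were higher, with a median of 0.07, and 9 of 14 with the deposited scaling. Without mdx vehicle library 1 these medians were -0.04 and 0.02. None of the 14 was called by limma, and 1 of them, Psma3, had an unadjusted p under 0.05 in any comparison.

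Among the alpha subunits, which form the outer rings and the gate of the core, Psma3 stood at 128, 146 and 137 CPM in wildtype vehicle libraries 1 to 3, at 105, 121 and 112 CPM in mdx vehicle and at 124, 120.1 and 137 CPM in mdx GTx-026. All 3 mdx vehicle libraries were below all 3 wildtype libraries, but not with the deposited scaling or the library total, where by the latter mdx vehicle library 1 stood at 135.02 CPM against 123 to 132 CPM in wildtype. The mdx GTx-026 libraries overlapped both groups. The difference of mdx vehicle from wildtype was -0.28 ± 0.12 (SE; unadjusted p = 0.0471, limma adjusted p = 0.384), and 15.4% of the 50-base words of Psma3 are shared with another annotated gene, so its level is uncertain to that extent. Psma1, another alpha subunit, stood at 67.8, 68.8 and 70.0 CPM in wildtype vehicle, at 42.2, 79.7 and 52.2 CPM in mdx vehicle and at 47.1, 55.3 and 60.9 CPM in mdx GTx-026. The wildtype values were close together, those of mdx vehicle lay on both sides of them, and those of mdx GTx-026 were all lower, by -0.34 ± 0.21 (SE; limma adjusted p = 0.582), though not wholly lower with the other scalings. The log2 differences of the other alpha subunits, Psma2, Psma4, Psma5, Psma6 and Psma7, between mdx vehicle and wildtype lay between -0.10 for Psma6 and 0.01 for Psma7.

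For the 3 constitutive catalytic subunits no difference between groups exceeded the spread between libraries by limma. Psmb5, the chymotrypsin-like subunit, stood at 191, 146 and 136 CPM in wildtype vehicle, at 122, 153 and 148 CPM in mdx vehicle and at 168, 152 and 148 CPM in mdx GTx-026. Psmb6, the caspase-like subunit, stood at 186, 134 and 139.7 CPM, at 116, 168 and 141 CPM, and at 170.5, 135 and 127 CPM in the same order of groups and libraries. For Psmb7, the trypsin-like subunit, the values were 220.1, 264 and 241 CPM, then 187, 231 and 212 CPM, then 247, 198 and 212 CPM. The groups overlapped for all 3 genes, and mdx vehicle library 1 was the lowest of the 9 for each of them after rescaling but for none with the deposited scaling or the library total. Of the 50-base words of Psmb5, 54.1% are shared with other annotated genes, as are 49.1% of those of Psma5, 17.8% of those of Psmb3, 14.1% of those of Psmc1 and 11.6% of those of Psma4, which makes their levels uncertain. In GRCm38 Psmb5 lies at chr14:54614119-54618022 on the minus strand, Psmb6 at chr11:70525367-70527858 on the plus strand and Psmb7 at chr2:38588036-38644087 on the minus strand, where 11.8% of its exon bases overlap Nek6 on the opposite strand. The structural beta subunits Psmb1, Psmb2, Psmb3 and Psmb4, which carry no active site, had log2 differences between -0.17 and 0.07 from wildtype to mdx vehicle, with no call.

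The immune catalytic subunits varied between libraries far more than their constitutive counterparts, and the groups overlapped. Their median SD within a group was 1.18 on the log2 scale. Psmb8, which replaces Psmb5, stood at 16.1, 27.5 and 2.90 CPM in wildtype vehicle libraries 1 to 3, at 31.2, 4.15 and 8.85 CPM in mdx vehicle and at 9.11, 14.1 and 7.81 CPM in mdx GTx-026. For Psmb9, which replaces Psmb6, the values were 9.52, 32.4 and 1.47 CPM, then 18.4, 2.10 and 4.31 CPM, then 4.11, 5.90 and 3.02 CPM. Psmb10, which replaces Psmb7, had 14.4, 53.0 and 9.38 CPM, then 22.2, 9.71 and 11.9 CPM, then 14.0, 17.1 and 12.4 CPM. Wildtype vehicle library 2 and mdx vehicle library 1 were the 2 highest libraries for each of the 3 genes, and wildtype vehicle library 3 was the lowest for each.

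Within the wildtype group alone the highest library exceeded the lowest 9.51-fold for Psmb8, 22.1-fold for Psmb9 and 5.64-fold for Psmb10, against 1.40-fold for Psmb5, 1.39-fold for Psmb6 and 1.20-fold for Psmb7. The same ratios for Psmb8, Psmb9 and Psmb10 were 7.52, 8.76 and 2.28 within mdx vehicle and 1.80, 1.95 and 1.38 within mdx GTx-026. Psmb8 amounted to 2.13% to 25.7% of Psmb5 over the 9 libraries, Psmb9 to 1.05% to 24.2% of Psmb6 and Psmb10 to 3.89% to 20.1% of Psmb7. These shares set reads of a pair of genes side by side without a correction for length, so they are comparable between libraries and not between pairs. The highest share was in mdx vehicle library 1 for Psmb8 and in wildtype vehicle library 2 for Psmb9 and Psmb10, and the lowest was in wildtype vehicle library 3 for all 3.

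**Figure D2:**
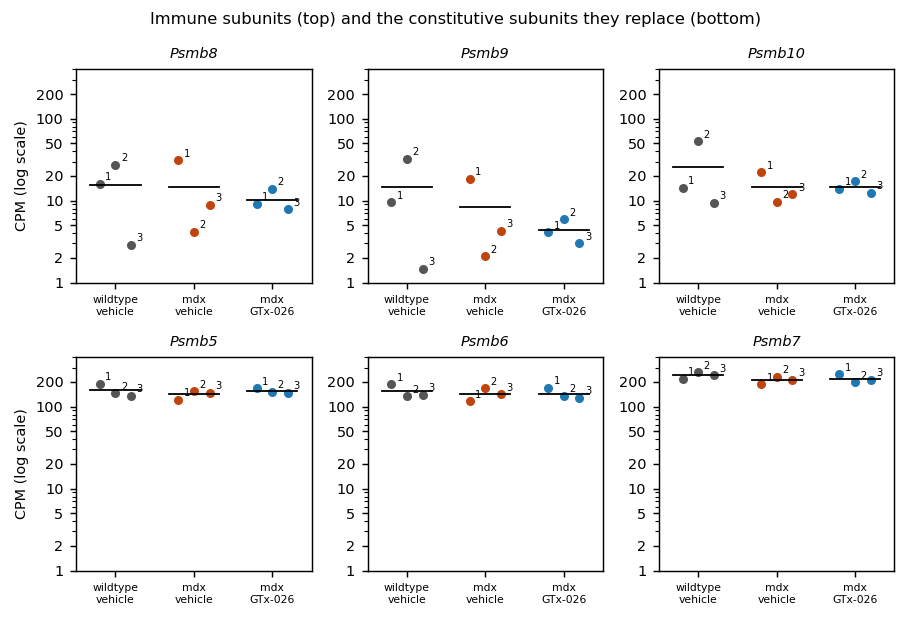
CPM on a log axis for the immune subunits Psmb8, Psmb9 and Psmb10 (top) and for the constitutive subunits they replace, Psmb5, Psmb6 and Psmb7 (bottom), by group. Points are libraries with their numbers and the line is the group mean. Over libraries of the wildtype group Psmb8 spans a 9.51-fold range, Psmb9 22.1-fold and Psmb10 5.64-fold, against 1.40-fold, 1.39-fold and 1.20-fold for Psmb5, Psmb6 and Psmb7.

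The tests of the immune subunits were accordingly wide. In mdx vehicle against wildtype the log2 difference of Psmb8 was -0.07 ± 0.77 (SE) with a 95% interval from -1.81 to 1.66, and it turned to 0.09 and 0.10 with the deposited scaling and the library total. That of Psmb9 was -0.48 ± 0.89 (SE) and that of Psmb10 -0.48 ± 0.53 (SE). From mdx vehicle to mdx GTx-026 the differences were -0.09 for Psmb8, -0.39 for Psmb9 and 0.06 for Psmb10. The direction against wildtype rested on single libraries: the median of the 3 genes in mdx vehicle against wildtype was -0.48 in all libraries, -0.97 without wildtype vehicle library 3, 0.43 without wildtype vehicle library 2 and 0.09 without mdx vehicle library 2. Between the 2 mdx groups that median was -0.09, and it was -0.69 without mdx vehicle library 2 and 0.38 without mdx vehicle library 1. For mdx GTx-026 minus wildtype it was -0.41, -1.004 without wildtype vehicle library 3 and 0.28 without wildtype vehicle library 2. Without both wildtype vehicle library 2 and mdx vehicle library 1, a setting chosen after seeing the data, the medians were -0.20, 0.39 and 0.28 in the 3 comparisons, and none of the 3 genes was called.

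The promoters of immune and constitutive genes are shown because these genes moved differently between libraries. RefSeq promoter windows, from 250 bases before a start site to 50 after it in GRCm38.p6, were matched by symbol for 42 of the 49 genes, with 45 windows in all. Psmb1, Psmb2, Psmb7, Psmc3, Psmd3, Psmd7 and Psmg2 had no entry. Searched on both strands were TGACNNNGC (antioxidant response element core, the site class of Nfe2l1), GAAANNGAA (interferon response element core) and the palindrome TTCNNNGAA, and capitals in the sequences mark their matches. The windows, read 5′ to 3′ on the gene's strand, are those of Psmb8 at chr17:34197945-34198244 (plus strand), Psmb9 at chr17:34187281-34187580 (minus), Psmb10 at chr8:105938343-105938642 (minus), Psme1 at chr14:55578244-55578543 (plus), Psmb5 at chr14:54617946-54618245 (minus) and Psmb6 at chr11:70525107-70525406 (plus).
Psmb8: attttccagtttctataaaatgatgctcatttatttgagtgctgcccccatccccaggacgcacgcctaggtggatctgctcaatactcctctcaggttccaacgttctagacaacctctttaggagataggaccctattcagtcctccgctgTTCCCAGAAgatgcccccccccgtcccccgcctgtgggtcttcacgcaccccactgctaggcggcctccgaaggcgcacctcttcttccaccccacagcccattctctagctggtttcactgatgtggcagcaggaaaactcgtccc
Psmb9: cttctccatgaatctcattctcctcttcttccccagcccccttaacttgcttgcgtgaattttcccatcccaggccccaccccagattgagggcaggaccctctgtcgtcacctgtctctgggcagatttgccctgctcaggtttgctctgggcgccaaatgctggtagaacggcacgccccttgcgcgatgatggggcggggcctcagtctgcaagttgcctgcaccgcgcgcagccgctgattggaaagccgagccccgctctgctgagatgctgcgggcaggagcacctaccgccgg
Psmb10: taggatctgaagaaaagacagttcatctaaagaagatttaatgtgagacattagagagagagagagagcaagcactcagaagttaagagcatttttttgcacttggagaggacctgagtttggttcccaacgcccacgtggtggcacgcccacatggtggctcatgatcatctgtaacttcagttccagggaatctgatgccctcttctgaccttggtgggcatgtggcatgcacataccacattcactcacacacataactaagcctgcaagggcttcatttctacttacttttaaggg
Psme1: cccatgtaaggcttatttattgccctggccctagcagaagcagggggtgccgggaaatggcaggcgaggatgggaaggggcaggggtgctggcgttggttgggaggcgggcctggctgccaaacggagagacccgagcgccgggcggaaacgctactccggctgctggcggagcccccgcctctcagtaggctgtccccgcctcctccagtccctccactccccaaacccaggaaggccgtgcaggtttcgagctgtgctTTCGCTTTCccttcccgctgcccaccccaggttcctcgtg
Psmb5: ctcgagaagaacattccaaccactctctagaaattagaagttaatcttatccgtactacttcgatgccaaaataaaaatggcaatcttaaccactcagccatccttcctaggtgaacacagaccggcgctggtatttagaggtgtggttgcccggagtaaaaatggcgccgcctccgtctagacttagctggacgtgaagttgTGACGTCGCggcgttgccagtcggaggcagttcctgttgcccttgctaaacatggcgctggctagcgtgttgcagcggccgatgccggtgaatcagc
Psmb6: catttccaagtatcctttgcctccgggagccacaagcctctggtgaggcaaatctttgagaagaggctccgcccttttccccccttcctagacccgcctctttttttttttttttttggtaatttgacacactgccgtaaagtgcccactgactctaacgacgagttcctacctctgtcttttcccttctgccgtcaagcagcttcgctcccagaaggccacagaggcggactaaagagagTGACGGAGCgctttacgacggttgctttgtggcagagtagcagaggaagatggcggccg

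The Psmb5 window held TGACGTCGC and the Psmb6 window TGACGGAGC, both matches to the antioxidant response element core. The Psmb8 window held TTCCCAGAA, a match to TTCNNNGAA, and the Psme1 window held TTCGCTTTC, which is the interferon response core read on the other strand. The windows of Psmb9 and Psmb10 held none of the 3 patterns. In the GENCODE annotation the outermost starts of Psmb8, Psmb9 and Psme1 are at positions 34197721, 34187764 and 55578123. All of these lie outside the windows shown, so the windows did not cover them. Among all 32851 windows 12.4% held TGACNNNGC, 8.56% GAAANNGAA and 8.3% TTCNNNGAA, and among the 45 windows of the family the shares were 13.3%, 15.6% and 6.67%. By class, GAAANNGAA lay in 4 of 27 windows of the constitutive 20S and 19S genes and in 1 of 6 of the immune subunits with Psme1 and Psme2. For TGACNNNGC the counts were 4 of 27 and 0 of 6, and for TTCNNNGAA 1 of 27 and 1 of 6. The printed windows are single examples and do not stand for their classes. A match is a run of letters and not a measured site.

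In the genome (GRCm38, GENCODE annotation) Psmb8 lies at chr17:34197721-34201454 on the plus strand and Psmb9 at chr17:34181987-34187764 on the minus strand, close to each other in the MHC region. Of the exon bases of Psmb9, 5.79% overlap Tap1 on the opposite strand, as 14.7% of those of Psmb8 overlap Gm20496, and since use of strand in the counting was not given in the sources used here, reads there cannot be told apart. Psmb10 lies at chr8:105935735-105938444 on the minus strand. Tap1 itself, a subunit of the peptide transporter of MHC class I loading, stood at 24.8, 113 and 3.96 CPM in wildtype vehicle, at 65.9, 5.48 and 11.1 CPM in mdx vehicle and at 13.01, 17.2 and 8.22 CPM in mdx GTx-026, with the same 2 libraries highest as for the immune subunits.

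Other genes of antigen presentation and the interferon pathway, though not all, were high in the same libraries. The summed level of 11 peptide loading and MHC class I genes was 1156.5, 1857 and 485 CPM in wildtype vehicle libraries 1 to 3, 1641, 487 and 835 CPM in mdx vehicle and 735, 958 and 714 CPM in mdx GTx-026. Irf1, the transcription factor induced by interferon gamma, stood at 22.2, 119.9 and 12.8 CPM in wildtype vehicle, at 49.0, 14.4 and 16.9 CPM in mdx vehicle and at 15.98, 18.9 and 16.3 CPM in mdx GTx-026. Wildtype vehicle library 2 was far above the rest for Irf1, and mdx vehicle library 1 was next.

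Lymphocyte markers separated these 2 libraries. Of 12 lymphocyte markers 2 were measured, Cd52 and Coro1a, and the other 10, genes of the B and T cell receptors among them, were not tested here. Their summed level was 377 CPM in mdx vehicle library 1, 129.9 CPM in wildtype vehicle library 1 and 100.1 CPM in mdx GTx-026 library 2, and 3.63 to 19.5 CPM in the other 6, which include wildtype vehicle library 2. All 11 measured macrophage markers had a higher mean in mdx vehicle than in wildtype, and their summed level ran from 55.3 to 144 CPM in wildtype vehicle, from 151 to 1048.5 CPM in mdx vehicle, with library 1 at the top, and from 405 to 633 CPM in mdx GTx-026. High immune subunits came with high lymphocyte and macrophage markers and with Irf1 at 49.0 CPM in mdx vehicle library 1. In wildtype vehicle library 2 they came with Irf1 at 119.9 CPM and low lymphocyte markers. The macrophage sum of that library, 144 CPM, was the highest of wildtype but below every mdx library. The part of these cells in the immune subunit levels was not tested, and in bulk RNA more cells of a type and more RNA per cell cannot be told apart.

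**Figure D3:**
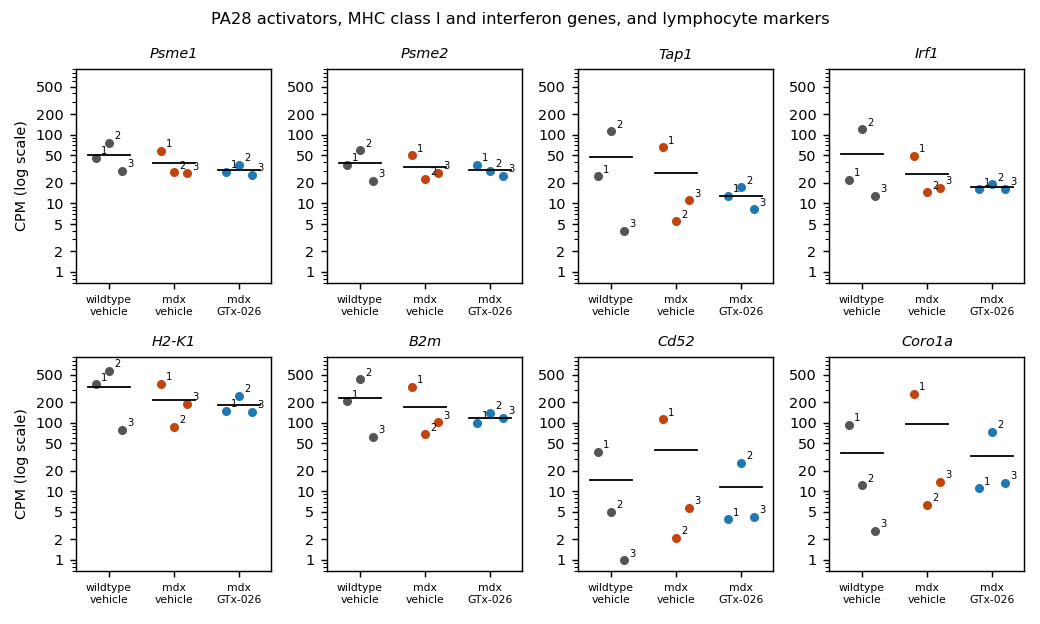
CPM on a log axis for the activators Psme1 and Psme2, for Tap1, Irf1, H2-K1 and B2m of the interferon and MHC class I pathways, and for the lymphocyte markers Cd52 and Coro1a, by group. Points are libraries with their numbers and the line is the group mean. Wildtype vehicle library 2 is at 119.9 CPM for Irf1 and at 12.3 CPM for Coro1a, whereas mdx vehicle library 1 is at 49.0 and 265 CPM.

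The 19S particle held the gene with the largest difference of mdx GTx-026 from mdx vehicle among the 49, Psmd8, a subunit of its lid. Psmd8 stood at 180.2, 181 and 143 CPM in wildtype vehicle libraries 1 to 3, at 117, 147 and 192 CPM in mdx vehicle and at 261, 207 and 244 CPM in mdx GTx-026. The 3 drug libraries were above all 6 others, and the mdx vehicle libraries lay on both sides of wildtype. The log2 difference of mdx GTx-026 from mdx vehicle was 0.67 ± 0.20 (SE; 95% interval 0.23 to 1.11), with an unadjusted p of 0.00730 and a limma adjusted p of 1.00 over all genes. Against wildtype it was 0.50 ± 0.20 (SE; 95% interval 0.06 to 0.94), with an unadjusted p of 0.0307 and a limma adjusted p of 0.315, or 0.123 at the lowest under another scaling. Leaving out any single library kept the first difference between 0.49 and 0.85 and the other between 0.39 and 0.59. Psmd8 lies at chr7:29174188-29180701 on the minus strand, overlaps no other annotated exon and shares no 50-base word with another gene. By the authors' deposited table the ratio of group means for Psmd8 was 0.653 for wildtype over treated (unadjusted p = 0.0167) and 0.654 for mdx vehicle over treated (unadjusted p = 0.0136).

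Across the 17 genes of the 19S particle, 16 had a lower mean in mdx vehicle than in wildtype and 1, the ATPase Psmc6, a higher one, with a median log2 difference of -0.16, whereas with the deposited scaling 10 of 17 were higher at a median of 0.01. In each of the scalings 16 of 17 lay below the median of all genes. Compared with mdx vehicle, 16 of 17 were higher in mdx GTx-026 at a median of 0.12, and 13 of 17 with the deposited scaling. Without mdx vehicle library 1 the medians were -0.04 and -0.03, and that library was below the wildtype mean for 17 of 17, against 7 of 17 with the deposited scaling or the library total. No gene of the 17 was called in either comparison by limma, and 1 (Psmd4) and 1 (Psmd8) had an unadjusted p under 0.05.

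Psmd4, the ubiquitin receptor of the 19S base, stood at 190.3, 205 and 188 CPM in wildtype vehicle, at 127, 172 and 161 CPM in mdx vehicle and at 192, 158 and 163 CPM in mdx GTx-026. Mdx vehicle was wholly below wildtype in each scaling, and mdx GTx-026 reached into both, but lay wholly above mdx vehicle with the deposited scaling or the library total. The difference of mdx vehicle from wildtype was -0.35 ± 0.15 (SE; unadjusted p = 0.0431, limma adjusted p = 0.374), and it was -0.22 without mdx vehicle library 1. Psmd2, a scaffold subunit of the base that binds ubiquitin-like domains, stood at 316, 313 and 264 CPM in wildtype vehicle, at 188, 258 and 251 CPM in mdx vehicle and at 278, 201 and 278 CPM in mdx GTx-026. Its groups of vehicle did not overlap either, though they did with the other scalings, with a difference of -0.37 ± 0.19 (SE; limma adjusted p = 0.446) that was -0.22 without mdx vehicle library 1. Of the words of Psmd2, 17.8% are shared with another annotated gene. Psmd1, the other large scaffold, and Psmd11, a lid subunit, were wholly lower by -0.24 and -0.19, but not with the other scalings, and neither difference passed the adjusted test.

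The remaining 19S genes overlapped between groups in every comparison after rescaling, whereas with the deposited scaling or the library total Psmc6 lay wholly higher in mdx vehicle than in wildtype, Psmc4 in mdx GTx-026 than in mdx vehicle and Psmc5 in mdx GTx-026 than in wildtype. For the ATPases Psmc1, Psmc2, Psmc3, Psmc4, Psmc5 and Psmc6, which unfold substrates, the log2 differences of mdx vehicle from wildtype lay between -0.15 for Psmc4 and 0.05 for Psmc6. Psmc6 stood at 70.8, 89.1 and 77.6 CPM in wildtype vehicle, at 72.6, 93.3 and 79.96 CPM in mdx vehicle and at 78.1, 66.2 and 87.0 CPM in mdx GTx-026. Psmd14, the deubiquitinase of the lid, stood at 42.7, 57.4 and 52.0 CPM, then at 49.1, 42.7 and 46.9 CPM, then at 49.6, 45.9 and 60.5 CPM. Its difference of mdx vehicle from wildtype was -0.12 ± 0.15 (SE). For the lid subunits Psmd3, Psmd6, Psmd7, Psmd12 and Psmd13 the same difference lay between -0.24 for Psmd7 and -0.15 for Psmd12, with limma adjusted p-values of 0.525 or more.

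With the rescaling used here, the 95% interval of each constitutive gene gives a limit on the size of its RNA change. These intervals are for single genes and do not include the shift that another scaling brings, and protein was not measured. The 95% interval of the log2 difference lay within 1 in either direction for 31 of the 31 constitutive genes in mdx vehicle against wildtype, and within 0.5 for 17. For mdx GTx-026 minus mdx vehicle it lay within 1 for 30 of 31 and within 0.5 for 23, and in mdx GTx-026 against wildtype for 31 and 25. For the immune subunits it lay within 1 for 0 of 3 in each comparison. The exception among the constitutive genes was Psmd8, with its interval from 0.23 to 1.11 in mdx GTx-026 against mdx vehicle.

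**Figure D4:**
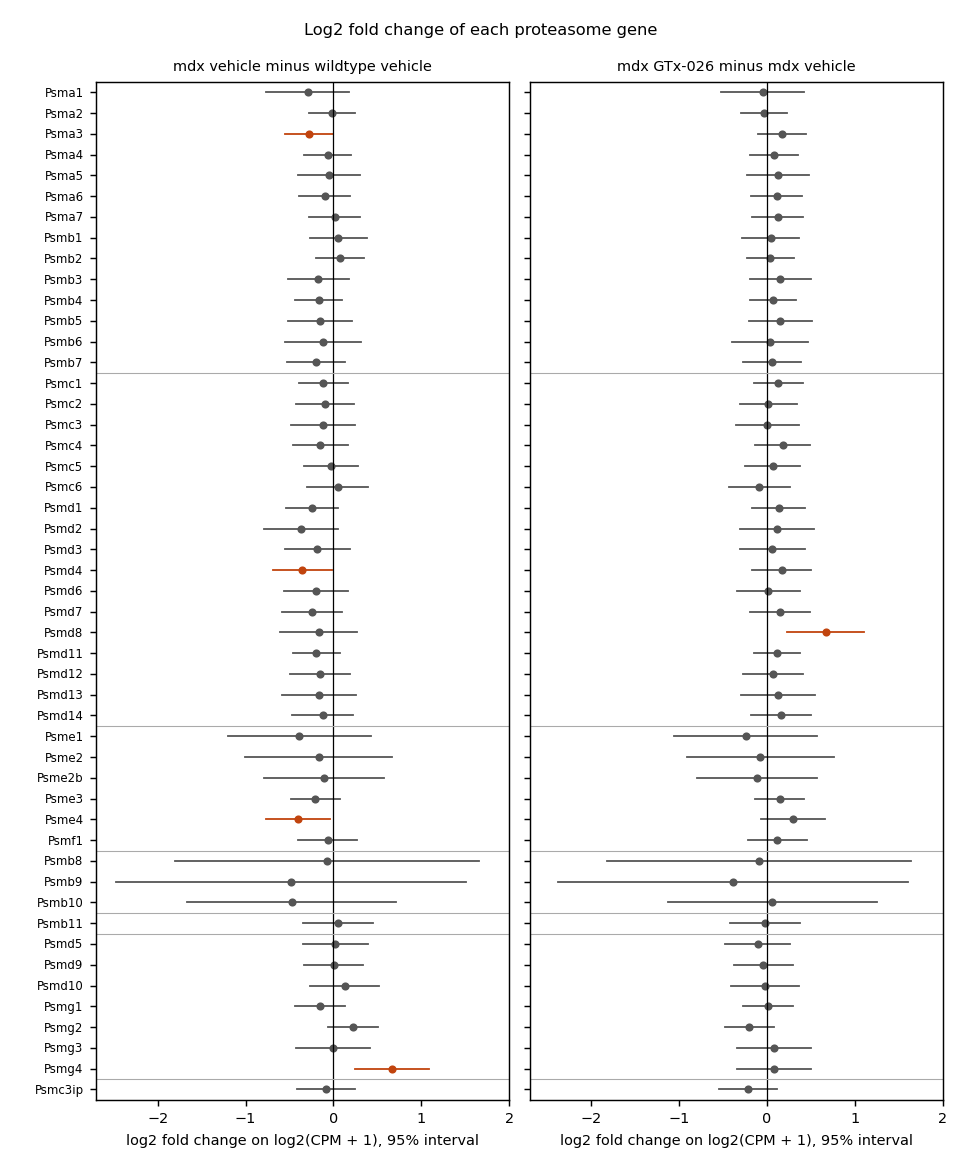
Log2 fold change with its 95% interval for every proteasome gene, for mdx vehicle minus wildtype vehicle and for mdx GTx-026 minus mdx vehicle. Orange marks an unadjusted p under 0.05 and no gene passed the adjusted test. Intervals are narrow for the constitutive 20S and 19S genes and wide for Psmb8, which spans -1.81 to 1.66, and the lean to the left in mdx vehicle turns with the deposited scaling or the library total.

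Among the activators that cap the core, the interferon-induced pair Psme1 and Psme2 shared their 2 highest libraries with the immune subunits. Psme1 stood at 45.8, 77.01 and 29.7 CPM in wildtype vehicle libraries 1 to 3, at 58.7, 28.5 and 27.3 CPM in mdx vehicle and at 28.9, 36.2 and 26.01 CPM in mdx GTx-026. Psme2 stood at 36.3, 59.5 and 21.3 CPM, then at 50.4, 22.8 and 27.9 CPM, then at 36.4, 29.6 and 25.4 CPM. Wildtype vehicle library 2 and mdx vehicle library 1 were again the highest for both genes, and the wildtype range was 2.60-fold and 2.80-fold. After rescaling, wildtype vehicle library 3 was the lowest for Psme2, as for the immune subunits, but mdx GTx-026 library 3 was the lowest for Psme1. The difference of mdx vehicle from wildtype was -0.39 ± 0.36 (SE) for Psme1, with values from -0.74 to -0.04 on leaving out single libraries. For Psme2 it was -0.17 ± 0.37 (SE), which turned to 0.00 and 0.01 with the deposited scaling and the library total and to 0.19 without wildtype vehicle library 2. Psme2b, at 2.60 to 7.09 CPM, shares 69.3% of its words with another annotated gene, and Psme2 28.3%, so reads of these 2 genes are uncertain.

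Psme4, the large activator also known as PA200 that is linked to acetylated histones, stood at 179, 233 and 198 CPM in wildtype vehicle, at 132, 164 and 164 CPM in mdx vehicle and at 195, 161 and 211 CPM in mdx GTx-026. Mdx vehicle lay wholly below wildtype in each scaling, and mdx GTx-026 overlapped both groups, but lay wholly above mdx vehicle with the deposited scaling or the library total. The difference was -0.40 ± 0.16 (SE; unadjusted p = 0.0352, limma adjusted p = 0.353) in mdx vehicle against wildtype and 0.29 ± 0.16 (SE; limma adjusted p = 1.00) in mdx GTx-026 against mdx vehicle. Without both wildtype vehicle library 2 and mdx vehicle library 1 the first was -0.20. Psme3, the nuclear activator PA28 gamma, stood at 50.3, 63.8 and 62.7 CPM, then at 50.9, 50.4 and 50.4 CPM, then at 54.7, 55.0 and 58.4 CPM. The drug libraries were wholly above mdx vehicle, by 0.14 ± 0.12 (SE; limma adjusted p = 1.00), but not with the other scalings, and within the range of wildtype. Psmf1, an inhibitor of the core, ran from 13.01 to 18.3 CPM, and the groups overlapped.

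The assembly factors held the gene with the largest difference of mdx vehicle from wildtype among the 49, Psmg4, a chaperone that helps to build the alpha ring. Psmg4 stood at 5.83, 8.19 and 4.99 CPM in wildtype vehicle libraries 1 to 3, at 11.5, 10.7 and 9.27 CPM in mdx vehicle and at 10.1, 11.2 and 12.1 CPM in mdx GTx-026. All 6 mdx libraries were above the 3 wildtype libraries, and the drug and vehicle libraries overlapped. The log2 difference from wildtype was 0.67 ± 0.19 (SE; unadjusted p = 0.00537, limma adjusted p = 0.203) in mdx vehicle and 0.74 ± 0.19 (SE; unadjusted p = 0.00272, limma adjusted p = 0.0952) in mdx GTx-026, and neither passed the threshold. The 95% intervals ran from 0.25 to 1.08 and from 0.33 to 1.16. Over single libraries left out the differences stayed between 0.53 and 0.84 and between 0.61 and 0.92, and the adjusted p over all alternatives lay between 0.183 and 0.6003 and between 0.0576 and 0.333. Of the 2 sequence records summed for Psmg4, 1 was apart, at 3.30 to 5.61 CPM in wildtype vehicle and 6.99 to 9.52 CPM in the mdx libraries. In the other record the groups overlapped, with wildtype vehicle library 2 at 2.58 CPM, mdx vehicle library 3 at 2.29 CPM and mdx GTx-026 library 1 at 2.56 CPM. Psmg4 lies at chr13:34162964-34178173 on the plus strand.

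Its partners in the assembly of the alpha ring did not share this pattern. Psmg3, which pairs with Psmg4, ran from 6.34 to 10.6 CPM and its groups overlapped. Psmg2 stood at 16.8, 16.8 and 18.0 CPM in wildtype vehicle, at 20.4, 21.1 and 19.3 CPM in mdx vehicle and at 19.2, 17.5 and 15.9 CPM in mdx GTx-026. Mdx vehicle was wholly above both other groups, by 0.22 ± 0.13 (SE; limma adjusted p = 0.484) against wildtype, and mdx GTx-026 differed from it by -0.20 and overlapped it with the other scalings. Psmg1, which pairs with Psmg2, stood at 9.83, 9.88 and 10.0 CPM, then at 8.43, 9.03 and 8.95 CPM, then at 8.58, 8.82 and 9.25 CPM. Both mdx groups were wholly below wildtype, but in neither of the other scalings, and the difference of -0.15 ± 0.13 (SE) in mdx vehicle turned to 0.01 with other scalings. Psmd5, Psmd9 and Psmd10, the chaperones of the 19S base, had log2 differences between 0.00 and 0.13 from wildtype to mdx vehicle, and 25.5% of the exon bases of Psmd9 overlap Gm26745 on the opposite strand.

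**Figure D5:**
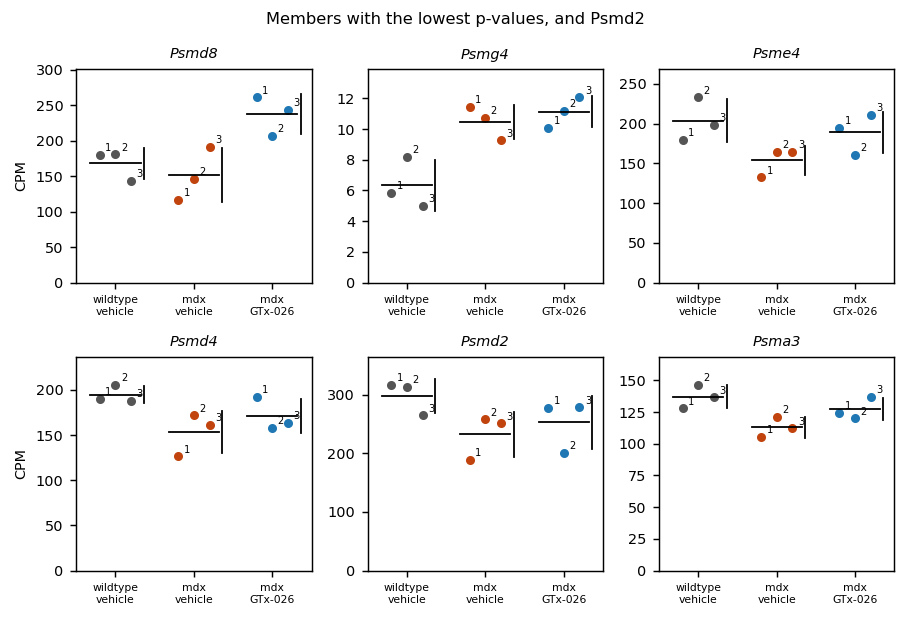
CPM from 0 for Psmd8, Psmg4, Psme4, Psmd4, Psmd2 and Psma3 by group. Points are libraries with their numbers, the line is the mean and the vertical bar the SD (n = 3). Psmd8 is highest in the 3 mdx GTx-026 libraries, at 207 to 261 CPM, and Psmg4 is at 9.27 CPM or more in all 6 mdx libraries against at most 8.19 CPM in wildtype.

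The last 2 genes are a thymus subunit and a gene outside the proteasome. Psmb11, the catalytic subunit of the thymus, ran from 3.11 to 4.95 CPM over the 9 libraries with overlapping groups. Psmc3ip ran from 1.32 to 2.38 CPM and was wholly lower in mdx GTx-026 than in wildtype, though not with the library total, by -0.30 ± 0.15 (SE; limma adjusted p = 0.454). Of the exon bases of Psmc3ip, 21.2% overlap Mlx on the opposite strand.

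Genes that work with the proteasome were counted in lists. Of 21 proteasome partners, such as shuttle factors and unfolding cofactors, 2 were higher in mdx vehicle than in wildtype at a median of -0.17, but 10 with the deposited scaling, and in both 19 of 21 lay below the median of all genes. None was called by limma and 0 had an unadjusted p under 0.05 in mdx vehicle against wildtype, a level that 12.9% of all genes reached. Nploc4, a cofactor that brings ubiquitinated proteins to the unfoldase Vcp, stood at 188, 255 and 294 CPM in wildtype vehicle, at 174, 187 and 197 CPM in mdx vehicle and at 224, 254 and 319 CPM in mdx GTx-026. The drug libraries were wholly above mdx vehicle, by 0.50 ± 0.20 (SE; unadjusted p = 0.0296, limma adjusted p = 1.00), but not with the other scalings, and overlapped wildtype. For Ube3c, a ligase bound to the proteasome, and Fbxo7, which binds the inhibitor Psmf1, the differences of mdx vehicle from wildtype were -0.27 ± 0.21 and -0.26 ± 0.18 (SE).

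Of 10 regulators of proteasome genes none was called by limma in any comparison, and 1, Foxo1, was higher in mdx vehicle at an unadjusted p under 0.05, which 12.9% of all genes reached. Nfe2l1, the transcription factor that drives proteasome subunit genes, stood at 441, 643 and 545 CPM in wildtype vehicle, at 224, 459 and 522 CPM in mdx vehicle and at 509, 381 and 717 CPM in mdx GTx-026. Mdx vehicle library 1 was lowest here in each scaling, the groups overlapped, and the difference of mdx vehicle from wildtype was -0.51 ± 0.34 (SE; limma adjusted p = 0.553), and between -0.74 and -0.00 over the alternatives. Foxo1, a transcription factor of muscle atrophy genes, stood at 21.2, 19.1 and 19.4 CPM, then at 38.3, 48.3 and 21.1 CPM, then at 28.7, 32.5 and 19.5 CPM. Its difference of mdx vehicle from wildtype was 0.74 ± 0.28 (SE; unadjusted p = 0.0270, limma adjusted p = 0.333). Foxo4, of the same family, differed the other way, by -0.38 ± 0.20 (SE; limma adjusted p = 0.452) in mdx vehicle and -0.51 ± 0.20 (SE; limma adjusted p = 0.308) in mdx GTx-026.

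The muscle ubiquitin ligases had mostly lower means in mdx vehicle. Of 13 such genes 11 were lower than in wildtype at a median of -0.31, where the median of all genes was 0.01, and 10 at a median of -0.15 with the deposited scaling, where it was 0.15. Limma called none, and 3 of the 13, Fbxo32, Trim55 and Asb2, had an unadjusted p under 0.05, as did 12.9% of all genes. Markers of the muscle fibre moved with them: 8 of 9 skeletal fibre markers had a lower mean in mdx vehicle, at a median of -0.36, and 6 of 9 at a median of -0.18 with the deposited scaling. The summed level of the ligases was lowest in mdx vehicle library 1, at 1535 CPM against up to 3011 CPM, and stayed the lowest with the library total, at 1968 CPM. The part of the fibre markers and of that library in the ligase values was not tested. Fbxo32, the atrophy ligase atrogin-1, stood at 209, 314 and 159 CPM in wildtype vehicle, at 100.1, 162 and 145 CPM in mdx vehicle and at 179, 115 and 190.1 CPM in mdx GTx-026. Its wildtype and mdx vehicle libraries overlapped, with a difference of -0.71 ± 0.29 (SE; limma adjusted p = 0.353). For Trim63, the atrophy ligase MuRF1, the difference was -0.63 ± 0.29 (SE; limma adjusted p = 0.396). Asb2 had a difference of -0.88 ± 0.32 (SE; limma adjusted p = 0.303) in mdx vehicle and -0.90 ± 0.32 (SE; limma adjusted p = 0.252) in mdx GTx-026. Of 9 genes of ubiquitin and its activation 2 were lower at an unadjusted p under 0.05, beside the same 12.9% of all genes, and none was called by limma. The conjugating enzyme Ube2d3 was wholly lower in mdx vehicle by -0.45 ± 0.15 (SE; limma adjusted p = 0.283), but not with the other scalings. The conjugating enzymes Ube2b and Ube2g1 differed from wildtype by -0.38 ± 0.19 and -0.35 ± 0.14 (SE) there.

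Among 11 peptide loading and MHC class I genes none was called in any comparison by limma, and 1, the loading chaperone Pdia3, was higher in mdx vehicle at an unadjusted p under 0.05, the level of 12.9% of all genes, by 0.43 ± 0.19 (SE; limma adjusted p = 0.381). Of 12 interferon pathway genes 1 was called, in mdx GTx-026 against wildtype, where 1.67% of all genes were. It was Ifngr2, a chain of the interferon gamma receptor, at 101, 103 and 102 CPM in wildtype vehicle, at 67.8, 77.5 and 74.3 CPM in mdx vehicle and at 70.2, 69.9 and 56.7 CPM in mdx GTx-026. All 6 mdx libraries were below the 3 wildtype libraries in each scaling. In mdx GTx-026 Ifngr2 fell by 0.64 ± 0.13 (SE) on the log2 scale with a limma adjusted p = 0.0400, and in mdx vehicle the difference was -0.48 ± 0.13 (SE; limma adjusted p = 0.178). The call was lost with the deposited scaling and the library total, at adjusted p-values of 0.118 and 0.133, and without any single library except mdx vehicle library 1 or 2, at 0.0556 to 0.168. Ifnar2, a chain of the receptor of type I interferon, was highest in mdx vehicle library 1, at 25.2 CPM, and ran from 6.195 to 15.3 CPM elsewhere.

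The authors' deposited table gives its own unadjusted p-value for each of the 79 sequence records of the 49 genes. In the authors' deposited values 3 of 79 records were under 0.05 between wildtype and mdx vehicle, where 6.01% of all records were, 2 of 79 between wildtype and treated, where 9.32% were, and 3 of 79 between mdx vehicle and treated, where 1.94% were. Between wildtype and treated they included Psmd8 and 1 of the records of Psmg4, with a ratio of wildtype over treated of 0.445 (unadjusted p = 0.0256). Between wildtype and mdx vehicle they were 1 of the 3 records of Psme4, with a ratio of wildtype over mdx vehicle of 1.16 (unadjusted p = 0.0464), 1 of the 3 of Psmd4, with 1.17 (unadjusted p = 0.0433), and 1 of the 2 of Psmb7, with 1.09 (unadjusted p = 0.0340). The other records of Psme4 had unadjusted p-values of 0.248 and 0.199. In the authors' deposited values the other record of Psmg4 had a ratio of wildtype over treated of 0.743 (unadjusted p = 0.0849).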

How the data were processed

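Polyadenylated RNA was sequenced on an Ion Torrent Proton, per the labels' protocols. The submitters' processing notes name, without role or order, HTSeq 0.6.1p1, Bowtie2 2.2.4, TopHat2 2.0.13, DESeq2 1.6.3, SAMtools 0.1.19 and the build GRCm38.p3. Gene annotation and use of strand are not given in the sources used here. Deposited by the authors, the signal is a scaled read number per sequence record, which in each library is reads multiplied by 1 factor, so dividing by that step gave an estimate of the listed reads. A ratio of group means and a p-value, both the authors' own per the file headers, are given for each pair of groups and record, the p-value without adjustment.

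Of 46442 records 4 had no symbol (0.000646% of the signal) and were left out, and 431 were at 0 in some library. All records of a symbol were summed, and 15372 symbols above 0 in all 9 libraries were tested. Libraries were rescaled by an unweighted trimmed mean of log ratios (30% trimmed on the ratio, 5% on the level; factors 0.868 to 1.28) and expressed as CPM, with 25.1 M to 38.0 M listed reads per library. The count-model test named in the plan was not used because the values are scaled. Instead limma 3.58.1 in R 4.3.3 was run on log2(CPM + 1) with all 9 libraries, 6 residual and 3.58 prior degrees of freedom and a trended prior variance. Two-sided p-values of a comparison were adjusted (Benjamini-Hochberg) over its 15372 genes, and 0.05 was the threshold. The procedure was tested on simulated data with the same dispersion for every gene and with large changes. That test does not bear on small changes or on genes that vary as the immune subunits did.

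Each column of the table was assigned to its group only. The family, the gene lists and the tests were chosen with earlier results of these data known. Named are every gene of the family, Dmd, and of each list the genes called in any comparison and up to 3 with the largest difference of mdx vehicle from wildtype at a mean of 5 CPM or more. B2m, Trim55 and the marker genes Acta1, Cd52 and Coro1a were named after their values were seen, and 1 gene that the rule names is not reported here. Overlaps and shared 50-base words came from the GENCODE annotation of GRCm38, and promoter windows from RefSeq (GRCm38.p6). There were 20 alternative settings, 19 planned and 1 chosen after seeing the data, of which 9 leave out 1 library each.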

Additional observations from a re-analysis of the deposited data

How the results depend on the processing

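No proteasome gene was called in any of the 20 settings, but counts over all genes and the lean of the family moved. With 1 library left out, genes called in mdx vehicle against wildtype ranged from 9 to 114, with 9 and 10 without wildtype vehicle library 2 or 3, 10 without mdx vehicle library 3 and 38 and 49 without mdx GTx-026 library 2 or 3. In mdx GTx-026 against mdx vehicle they ranged from 0, without mdx vehicle library 3 or mdx GTx-026 library 1, to 2, and in mdx GTx-026 against wildtype from 65, without wildtype vehicle library 3, to 397, without mdx vehicle library 1. Counts of proteasome genes higher ranged from 7 to 19, 28 to 38 and 11 to 22 in that order. Medians ranged from -0.20 to -0.04, 0.021 to 0.16 and -0.08 to 0.01 for the 20S core, and from -0.24 to -0.04, -0.028 to 0.17 and -0.12 to -0.01 for the 19S particle. For the immune subunits they ranged from -0.97 to 0.43, -0.69 to 0.38 and -1.004 to 0.28. In mdx vehicle against wildtype the differences ranged from -0.91 to 0.53 for Psmb8, -1.46 to 0.43 for Psmb9, -0.97 to 0.22 for Psmb10 and -0.53 to 0.19 for Psme2. Medians of the assembly factors in the 3 comparisons ranged from -0.01 to 0.18, -0.07 to 0.03 and -0.05 to 0.08, and those of the activators and inhibitor from -0.42 to -0.08, -0.06 to 0.13 and -0.33 to 0.00.

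With the deposited scaling and the library total, 33 and 34 proteasome genes were higher in mdx vehicle than in wildtype and 36 and 36 in mdx GTx-026 than in wildtype. The 20S medians against wildtype became 0.065 and 0.075 in mdx vehicle and 0.11 and 0.12 in mdx GTx-026, and the 19S median in mdx vehicle became 0.010 and 0.020. Psmb8 turned to 0.088 and 0.098 and Psme2 to 0.0010 and 0.011. Genes called in mdx GTx-026 against mdx vehicle became 4 and 4. In these scalings the median of all genes in mdx vehicle against wildtype was itself at 0.15 and 0.16. With a pseudocount of 5 CPM 1 gene was called in mdx GTx-026 against mdx vehicle. With the spread from the 2 groups alone, 17, 1 and 436 genes were called in the 3 comparisons. Without both wildtype vehicle library 2 and mdx vehicle library 1, chosen after seeing the data, 25, 1 and 139 were called, 16 proteasome genes were higher in mdx vehicle than in wildtype and the 19S median of mdx GTx-026 against mdx vehicle was -0.027, and the cause was not tested. No paired analysis was possible because the labels number the samples 1 to 9 across groups and the numbers of the table's columns are tied to no sample. Depth limits low genes such as Psmc3ip, Psmb11 and Psme2b, and 3 libraries a group limit all tests.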
